A study of Mus musculus with 6 samples.

Results

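The genes of motile cilia were followed in the retina of newborn mice with a conditional deletion of Lhx2. The list holds 42 genes out of 39179 gene rows counted, chosen by name for their known part in building or moving motile cilia, with no limit on expression. The list was drawn up with earlier results of these data known. The comparison also uses a measured value, the share of reads that could belong to more than 1 gene, to divide the libraries into sets. Conditional knockout (cKO) retinas came from 3 mice homozygous for a floxed Lhx2 allele and carrying a Pdgfrα-Cre transgene, and control retinas from 3 mice with the floxed alleles and no Cre, elsewhere in the submitters' text called wild type. All were of a mixed strain, mainly CD-1, and were taken at postnatal day 0.5. The Cre is driven by the Pdgfrα promoter, so loss of Lhx2 is limited to cells that used that promoter and their descendants, while RNA was taken from the whole retina. The libraries are cKO 1, 2 and 3 and control 2, 3 and 4, after the numbers in their titles.

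A motile cilium is a hair of doublet microtubules arranged around a central pair. Rows of outer and inner dynein arms on each doublet slide it against its neighbour, and radial spokes, nexin links and the central pair time that sliding. In multiciliated cells Mcidas and Ccno start the programme by multiplying centrioles, and the transcription factors Foxj1, Rfx2 and Rfx3 switch on the genes of the axoneme, the shaft of the cilium. Ependyma, airway and oviduct carry such cilia. Cells of the neural retina carry a primary cilium instead, which does not beat, and photoreceptors later turn theirs into the outer segment.

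The gene counts summed to between 31483170 and 66947478 per cKO library and between 32698665 and 43854446 per control library. Levels below are CPM, read counts relative to TMM-scaled library size. Lhx2 stood at 252, 287 and 224 CPM in cKO 1, 2 and 3, against 399, 266 and 258 CPM in controls 2, 3 and 4, and fell by 0.40 on the log2 scale (adjusted p = 0.0338, edgeR); which exons are floxed is not stated. Of 13 retina markers, all tested, 2 rose and 6 fell, where 6.36% of all genes tested rose and 5.63% fell. Their summed levels were 2475 to 3783 CPM in cKO retinas and 2913 to 4101 CPM in control retinas. All were present: Six6 had 119 to 174 CPM in cKO retinas and 219 to 256 CPM in control retinas, and Pou4f2, a ganglion cell factor, had 63.0 to 106 CPM in cKO retinas and 43.5 to 47.7 CPM in control retinas. The libraries fall into sets that cross genotype: cKO 1, cKO 2 and control 2 (set A) had 3.13 to 3.20% of all counts ambiguous between genes, and cKO 3, control 3 and control 4 (set B) had 2.63 to 2.69%. All cKO mice and control 3 were female by Xist, and controls 2 and 4 were male by Ddx3y, so cKO 3 and control 3 are the only cKO and control that share both set and sex.

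Taken over all 42 genes, the level of motile cilia transcripts separated by library set, with the genotypes overlapping. Their summed level was 218, 225 and 420 CPM in cKO 1, 2 and 3, against 247, 397 and 444 CPM in controls 2, 3 and 4. Most of that sum came from a few abundant members. Per kilobase of annotated exon, Rsph1 had the highest mean level over the 6 libraries (27.0 CPM per kb), followed by Mns1 (10.5), Ccdc39 (5.60), Rfx3 (5.57) and Tekt1 (5.26), while the dynein heavy chain genes lay between 0.016 and 0.539 CPM per kb. Mns1, Rsph1 and Ccdc39 were 6.31, 5.39 and 2.89 times as high in set B as in set A, and Ccno and Rsph9 were 5.42 and 3.54 times as high in set A as in set B. The set is itself defined from read counts, and these ratios are given as a description.

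With library set as a term in edgeR's quasi-likelihood test, 8 members rose in cKO retinas and 1 fell, at a Benjamini-Hochberg adjusted p under 0.05 over all 16691 genes tested. The members that rose were Cfap52, Cfap65, Dnah6, Cfap43, Cfap44, Ak7, Spef2 and Cfap54, with log2 fold changes of 0.77 to 3.89 and adjusted p of 0.00244 to 0.0293. Mns1 fell. Over all genes tested, 6.36% rose and 5.63% fell. Of the 42 members 37 passed the filter on low counts, and 28 of these did not pass the test. Of the 37, 9 passed the filter through the cKO libraries, having fewer than 3 controls at the filter's level, and 5 of the 8 that rose were among them (Cfap52, Cfap65, Dnah6, Cfap43 and Ak7), so the share of tested members that rose is not set against the background. The median log2 fold change was 0.56 for the members tested. These 9 are included, so it is likewise not set against the median of all genes tested, 0.00. For the members it was 0.21 over the 28 with a mean CPM of at least 1, 0.25 without cKO 3 and 0.31 with set A fitted alone. In the main fit it was -0.03 over the 20 tested members with a mean of 2 CPM or more. For 14 of the 42 members, 13 of them tested, every cKO library lay above every control, and for 1 below. The 13 include Cfap52, Cfap65, Dnah6, Cfap43 and Ak7, which passed the filter through the cKO libraries. Over all genes tested 8.38% lay above and 5.54% below in this way, and the member count is not set against these shares.

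**Figure D1:**
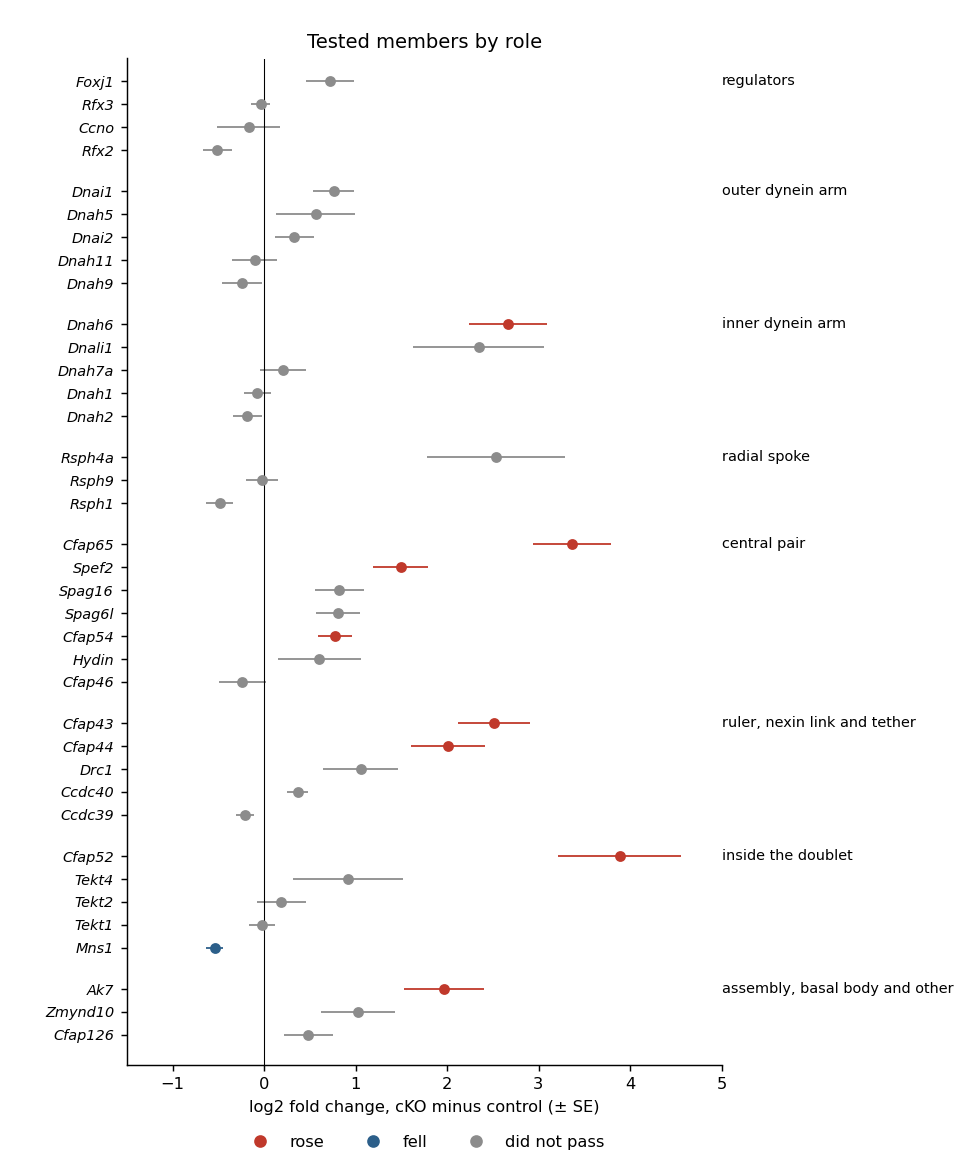
Log2 fold change (cKO minus control, ± SE) of the 37 members tested, grouped by role. The 8 members that rose lie between 0.77 and 3.89 and come from 5 of the 8 role groups, and Mns1, the member that fell, lies at -0.54.

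Promoters of the members are shown for those past the threshold that hold a motif of the ciliary regulators. RefSeq promoters (GRCm38.p6), running from 250 bases before to 50 bases after the gene start, matched 37 of the 42 members. They were searched on both strands for GTTGCC, part of the X-box bound by RFX factors, and for TGTTTAC, the forkhead core bound by Foxj1 and many other forkhead factors. GTTGCC or its complement GGCAAC stood in 19 of the 37 member promoters (51.4%), against 12.4% of 32544 promoters of all genes, and TGTTTAC or GTAAACA in 2 of 37 (5.41%), against 3.66%. Among the 6 members that rose and have a promoter in the table, 2 held GTTGCC (Cfap44 and Spef2) and 2 held TGTTTAC (Cfap43 and Ak7). The RFX letters also stood in promoters of members that did not pass, such as Tekt1, Tekt2 and Rfx3, and in that of Mns1, which fell. No member promoter held both motifs. A match describes the letters only. The RefSeq start of Cfap43 and that of Mns1 lie inside the bounds given here from GENCODE. Sequences run 5′ to 3′ along the gene's strand, with the matches in capitals.
Cfap44 (GRCm38.p6 chr16:44394549-44394848, plus strand): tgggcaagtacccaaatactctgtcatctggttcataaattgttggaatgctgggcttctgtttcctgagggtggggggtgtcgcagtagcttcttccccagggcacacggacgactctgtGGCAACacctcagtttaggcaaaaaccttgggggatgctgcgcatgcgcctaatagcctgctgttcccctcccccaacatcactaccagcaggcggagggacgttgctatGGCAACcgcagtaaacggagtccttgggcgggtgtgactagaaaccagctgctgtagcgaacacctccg
Spef2 (GRCm38.p6 chr15:9748819-9749118, minus strand): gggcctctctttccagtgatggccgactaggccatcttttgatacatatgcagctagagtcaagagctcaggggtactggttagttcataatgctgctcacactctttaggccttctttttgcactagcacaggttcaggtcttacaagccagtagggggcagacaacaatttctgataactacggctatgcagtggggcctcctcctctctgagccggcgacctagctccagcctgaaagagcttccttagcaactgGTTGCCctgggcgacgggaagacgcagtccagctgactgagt
Cfap43 (GRCm38.p6 chr19:47837312-47837611, minus strand): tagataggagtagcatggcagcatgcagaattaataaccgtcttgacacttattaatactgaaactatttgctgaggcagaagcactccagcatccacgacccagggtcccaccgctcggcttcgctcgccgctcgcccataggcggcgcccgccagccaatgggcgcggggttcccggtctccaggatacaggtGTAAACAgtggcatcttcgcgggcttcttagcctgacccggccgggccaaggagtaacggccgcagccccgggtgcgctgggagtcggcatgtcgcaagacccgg
Ak7 (GRCm38.p6 chr12:105705732-105706031, plus strand): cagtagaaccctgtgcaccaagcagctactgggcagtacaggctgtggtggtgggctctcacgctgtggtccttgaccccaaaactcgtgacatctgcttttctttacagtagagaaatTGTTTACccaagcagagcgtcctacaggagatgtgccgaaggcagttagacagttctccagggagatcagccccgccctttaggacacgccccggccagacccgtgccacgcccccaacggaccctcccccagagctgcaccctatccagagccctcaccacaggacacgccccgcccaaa
Mns1 (GRCm38.p6 chr9:72438279-72438578, plus strand): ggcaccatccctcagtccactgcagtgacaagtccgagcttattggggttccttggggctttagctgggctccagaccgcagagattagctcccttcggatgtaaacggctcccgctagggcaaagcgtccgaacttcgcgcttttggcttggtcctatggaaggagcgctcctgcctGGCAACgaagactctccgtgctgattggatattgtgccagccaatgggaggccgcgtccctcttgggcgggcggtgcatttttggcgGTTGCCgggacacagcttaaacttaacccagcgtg

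Of the 4 regulators tested 0 passed in edgeR. Foxj1, the master factor of motile cilia (ENSMUSG00000034227; GRCm38 chromosome 11, 116330704 to 116335399, minus strand), had 16.4, 13.5 and 16.3 CPM in cKO 1, 2 and 3, against 13.5, 4.996 and 7.92 CPM in controls 2, 3 and 4. The groups did not overlap, though cKO 2 and control 2 were nearly equal. The log2 fold change was 0.72 (SE 0.26, adjusted p = 0.118, edgeR), or 0.15 in set A alone and 1.34 in set B alone, and Foxj1 passed the test without control 2 (1.34), when the comparison rests on set B and its only cKO library, cKO 3, which is then assumed to vary like the others. The difference between the sets did not pass its own test (interaction, adjusted p = 0.975).

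Rfx2, an activator of ciliary genes, had 21.2, 27.9 and 15.3 CPM in cKO 1, 2 and 3, against 42.7, 16.9 and 17.99 CPM in controls 2, 3 and 4. Within each set its cKO libraries were the lower ones (log2 fold change -0.51, SE 0.16, adjusted p = 0.0719, edgeR). Rfx3, its close relative, was the regulator with the most reads, at 42.2, 50.1 and 76.5 CPM in cKO 1, 2 and 3, against 49.1, 69.2 and 81.9 CPM in controls 2, 3 and 4. The groups overlapped in both sets, and the log2 fold change was -0.04 (SE 0.11, adjusted p = 0.871, edgeR). Mcidas and Ccno are neighbours on chromosome 13, and Mcidas acts above Foxj1. Mcidas was counted with 13, 13 and 11 reads in cKO 1, 2 and 3, against 3, 3 and 7 reads in controls 2, 3 and 4, too few to pass the filter. Over the groups this gives 37 against 13 reads, a ratio per gene count of 2.14 (exact 95% counting interval 1.11 to 4.39, which covers counting error only). Ccno followed the sets, with 2.21, 1.80 and 0.340 CPM in cKO 1, 2 and 3, against 2.19, 0.539 and 0.265 CPM in controls 2, 3 and 4 (log2 fold change -0.17, SE 0.34, adjusted p = 0.811, edgeR).

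**Figure D2:**
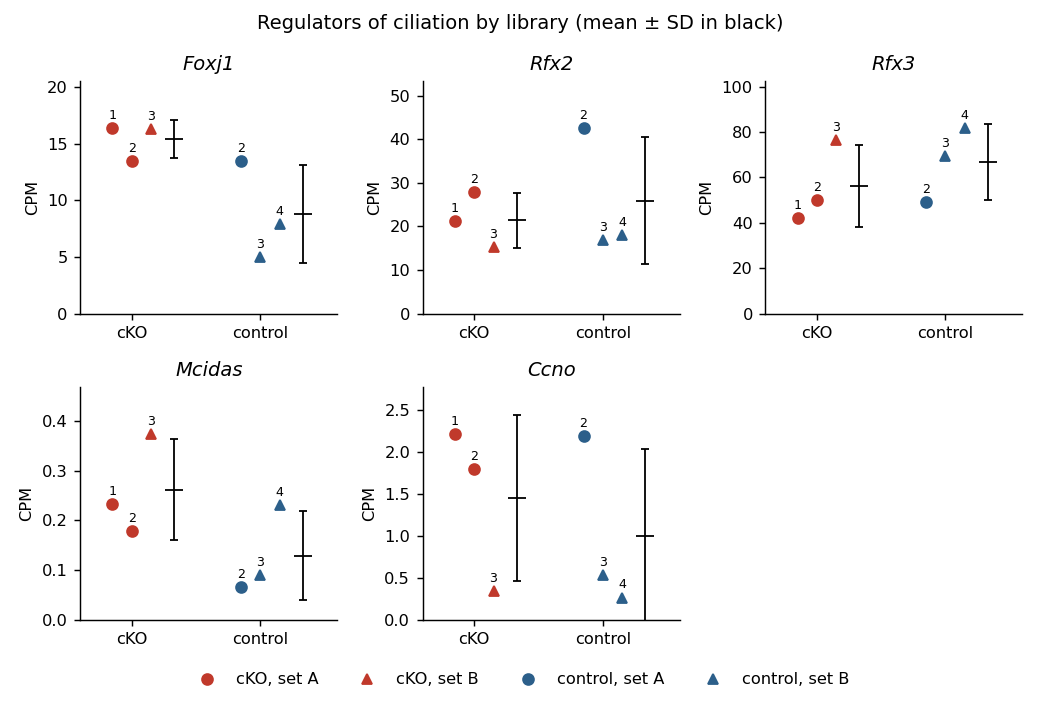
CPM of the 5 regulators in each library, cKO left of control, with circles for set A, triangles for set B, label numbers above the points and mean ± SD in black (n = 3 each; the lower bar of Ccno is cut at 0). Foxj1 lies at 13.5 to 16.4 CPM in cKO retinas and at 4.996 to 13.5 CPM in control retinas, and Ccno separates by set.

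Among dynein arm genes Dnah6 rose and no other member passed. Dnah6, a heavy chain of the inner arm (GRCm38 chromosome 6, 73017606 to 73221651, minus strand), had 0.803, 1.16 and 3.00 CPM in cKO 1, 2 and 3, against 0.240, 0.209 and 0.464 CPM in controls 2, 3 and 4. All cKO libraries were above all controls, with the highest value in cKO 3. These values rest on 45, 84 and 88 reads in the cKO libraries and on 11, 7 and 14 reads in the controls, and the log2 fold change was 2.67 (SE 0.43, adjusted p = 0.00629, edgeR). The better counted inner arm heavy chains gave log2 fold changes near 0, -0.07 for Dnah1 (SE 0.15, adjusted p = 0.813) and -0.18 for Dnah2 (SE 0.15, adjusted p = 0.517). Dnah7a was at 0.21. Dnali1, an inner arm light chain, had 17, 29 and 17 reads in cKO 1, 2 and 3, against 6, 0 and 3 reads in controls 2, 3 and 4 (log2 fold change 2.35, SE 0.72, adjusted p = 0.0679). Dnah12 had 12, 7 and 13 reads, against 6, 1 and 8 reads, and was not tested.

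The 5 outer arm genes gave log2 fold changes of -0.24 to 0.76. Dnai1, an intermediate chain named Dnaic1 in the annotation, had 4.91, 4.505 and 6.33 CPM in cKO 1, 2 and 3, against 2.71, 2.96 and 4.70 CPM in controls 2, 3 and 4. It missed the threshold (log2 fold change 0.76, SE 0.22, adjusted p = 0.0592, edgeR), and within each set its cKO libraries were the higher ones. The heavy chain gene Dnah11 was at -0.10 (SE 0.24, adjusted p = 0.834), and Dnah9 at -0.24, the member whose 3 cKO libraries were all below the controls.

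No radial spoke gene passed. Rsph1, a protein of the spoke head, had 9.01, 10.1 and 54.9 CPM in cKO 1, 2 and 3, against 15.7, 56.2 and 76.3 CPM in controls 2, 3 and 4. It was lower in the cKO libraries within each set (log2 fold change -0.48, SE 0.15, adjusted p = 0.0652, edgeR). Rsph9 was at -0.02 (SE 0.18, adjusted p = 0.955). Rsph4a, also of the spoke head, had 30, 48 and 61 reads in cKO 1, 2 and 3, against 8, 0 and 15 reads in controls 2, 3 and 4, without overlap (log2 fold change 2.54, SE 0.75, adjusted p = 0.0621).

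Of the 8 central pair genes 3 rose. Cfap65, a protein of the central apparatus needed for the sperm tail (GRCm38 chromosome 1, 74902071 to 74935599, minus strand), had 1.23, 0.967 and 2.69 CPM in cKO 1, 2 and 3, against 0.131, 0.120 and 0.331 CPM in controls 2, 3 and 4. It was high in every cKO library and rested on 69, 70 and 79 reads in cKO 1, 2 and 3, against 6, 4 and 10 reads in controls 2, 3 and 4. The log2 fold change was 3.37 (SE 0.43, adjusted p = 0.00244, edgeR), or 3.05 in set A alone and 3.58 in set B alone. Spef2, needed for sperm tails and ciliary beating in mice (chromosome 15, 9578193 to 9748868, minus strand), had 0.9996, 1.33 and 2.86 CPM in cKO 1, 2 and 3, against 0.372, 1.20 and 0.994 CPM in controls 2, 3 and 4. Its groups overlapped when pooled, with the lowest cKO value in set A and the highest control in set B, and the log2 fold change was 1.49 (SE 0.30, adjusted p = 0.0150, edgeR). Cfap54 (chromosome 10, 92775619 to 93081618, minus strand) had 4.09, 4.27 and 7.08 CPM in cKO 1, 2 and 3, against 2.38, 3.83 and 4.67 CPM in controls 2, 3 and 4, and it was higher in the cKO libraries within each set (log2 fold change 0.77, SE 0.19, adjusted p = 0.0293, edgeR).

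Among the other central pair genes, Spag6l and Spag16 had log2 fold changes of 0.81 and 0.82 and did not pass, Hydin was at 0.60 and Cfap46 at -0.24. Spag17 was counted with 9, 14 and 10 reads in cKO 1, 2 and 3 and with 0 reads in every control. With the summed control reads set to 3, the limit that a count of 0 allows, the pooled ratio per gene count was 8.27. This ratio takes the cKO reads as exact and leaves out the spread between animals and the library set. Spag17 did not pass the filter. With no filter it passed the test (adjusted p = 0.00106, edgeR). That fit gave other members, such as Foxj1, a smaller adjusted p from the same reads, so this pass is not taken as a rise.

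Of the genes of the ruler, nexin link and tether, which set the repeat along the doublet and hold the arms and doublets together, Cfap43 and Cfap44 rose. Both proteins belong to the tether of an inner dynein arm, as known from Tetrahymena and Chlamydomonas. Cfap43 (chromosome 19, 47736857 to 47919287, minus strand) had 0.696, 0.774 and 2.25 CPM in cKO 1, 2 and 3, against 0.197, 0.239 and 0.331 CPM in controls 2, 3 and 4 (log2 fold change 2.51, SE 0.39, adjusted p = 0.00570, edgeR). Cfap44 (chromosome 16, 44394796 to 44482428, plus strand) had 1.37, 1.18 and 3.30 CPM in cKO 1, 2 and 3, against 0.350, 0.389 and 1.13 CPM in controls 2, 3 and 4 (log2 fold change 2.01, SE 0.41, adjusted p = 0.0147, edgeR). For both genes every cKO library lay above every control, with cKO 3 highest. The abundant ruler gene Ccdc39 was at -0.20 (SE 0.10, adjusted p = 0.233), and its partner Ccdc40 at 0.37 (SE 0.12, adjusted p = 0.0775). Drc1 was at 1.06 and did not pass. Ccdc153, with 21, 6 and 10 reads in cKO 1, 2 and 3 against 1, 4 and 0 reads in controls 2, 3 and 4, was not tested.

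Genes of proteins inside the doublet moved in both directions. Cfap52 (chromosome 11, 67924806 to 67965651, minus strand) had 37, 55 and 32 reads in cKO 1, 2 and 3, against 5, 0 and 1 reads in controls 2, 3 and 4, or 0.660, 0.760 and 1.09 CPM against 0.109, 0 and 0.033 CPM. The log2 fold change, 3.89 (SE 0.68, adjusted p = 0.00845, edgeR), was the largest of the members tested. Mns1, a coiled-coil protein of the doublet lumen (chromosome 9, 72438011 to 72462025, plus strand), had 12.3, 14.3 and 75.1 CPM in cKO 1, 2 and 3, against 19.5, 112 and 104 CPM in controls 2, 3 and 4. The groups overlapped when pooled, and within each set the cKO libraries were lower (log2 fold change -0.54, SE 0.09, adjusted p = 0.00818, edgeR; -0.55 in set A alone and -0.52 in set B alone). Of the annotated exon bases of Mns1, 53.0% are shared with Tex9 on the opposite strand, and whether strand was used in counting is not stated, so reads of the pair cannot be told apart. Tex9 itself had a log2 fold change of -0.21 (adjusted p = 0.173). The tektin genes Tekt1, Tekt2 and Tekt4 were at -0.02, 0.19 and 0.92, and none passed.

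Ak7, an adenylate kinase of motile cilia (chromosome 12, 105705976 to 105782447, plus strand), had 1.59, 1.41 and 2.35 CPM in cKO 1, 2 and 3, against 0.481, 0.209 and 0.762 CPM in controls 2, 3 and 4, without overlap (log2 fold change 1.97, SE 0.44, adjusted p = 0.0217, edgeR). Zmynd10, a dynein assembly factor, also had no overlap, with 2.80, 1.603 and 1.12 CPM in cKO 1, 2 and 3, against 0.896, 0.927 and 0.431 CPM in controls 2, 3 and 4, but did not pass (log2 fold change 1.03, SE 0.41, adjusted p = 0.147). Cfap126, of the basal body, was at 0.49 (SE 0.27, adjusted p = 0.293). Tmem212, an ependymal marker, had 3 reads in cKO 2 and 0 reads in all other libraries.

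**Figure D3:**
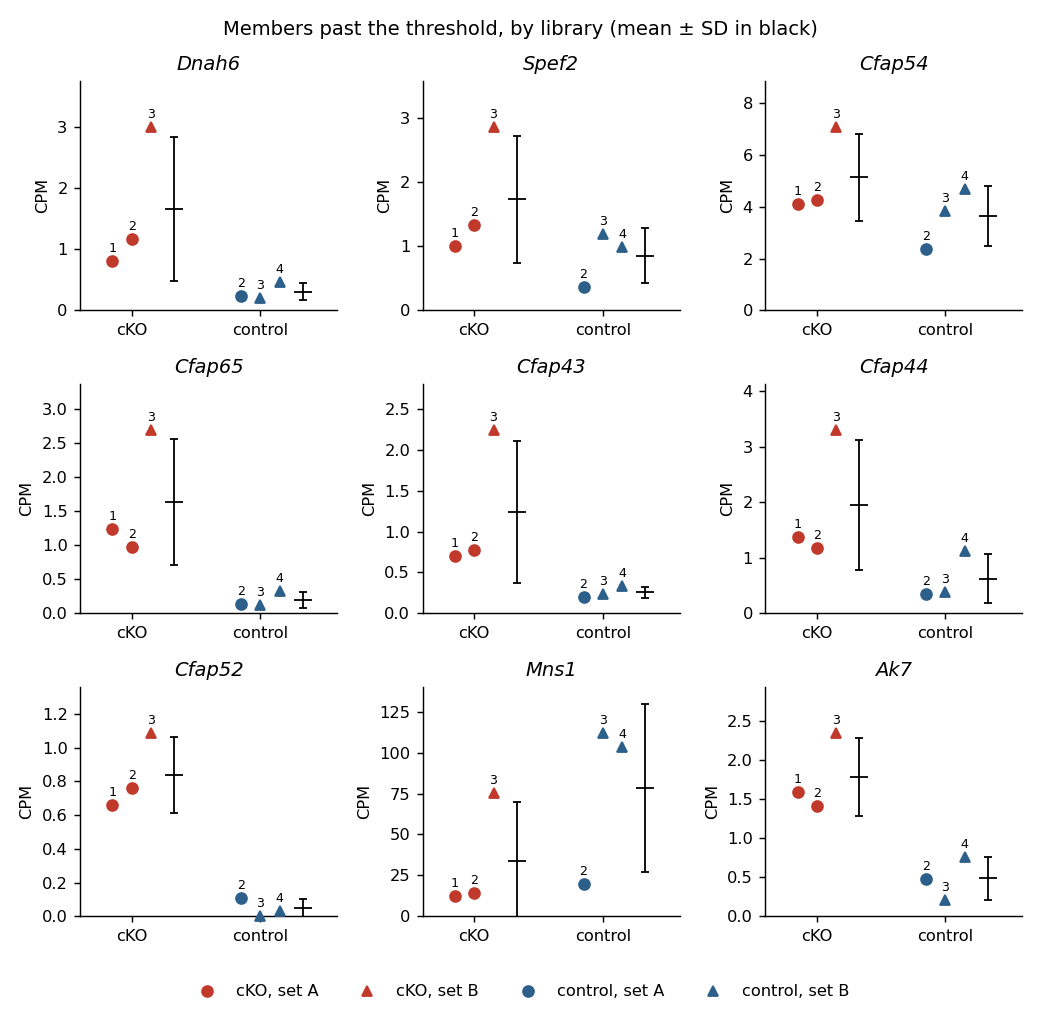
CPM of the 9 members past the threshold in each library, cKO left of control, with circles for set A, triangles for set B, label numbers above the points and mean ± SD in black (n = 3 each; the lower bar of Mns1 is cut at 0). In the 8 panels of members that rose cKO 3 is the highest of all libraries, and in the Mns1 panel the libraries separate by set with cKO lower within each.

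Apart from Cfap54 the members that rose had means under 2 CPM over the 6 libraries, and Mns1, which fell, is one of the abundant members. The 9 members that passed the filter through the cKO libraries all lie in that low range, where the filter keeps genes that are higher in cKO retinas, so no share or median is compared between low and abundant members. Per kilobase of exon the 8 genes that rose averaged between 0.074 and 0.300 CPM, against 4.61 CPM for Foxj1. All 8 were higher in every cKO library than in every control of the same set. The test that picked them used these libraries with set as a term, so this adds no support. Of all 42 members 22 were higher in this way and 5 were lower. The 22 include untested members and some that passed the filter through the cKO libraries. Over all genes tested 22.9% were higher and 23.8% lower in both sets, and the member counts are not set against these shares.

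**Figure D4:**
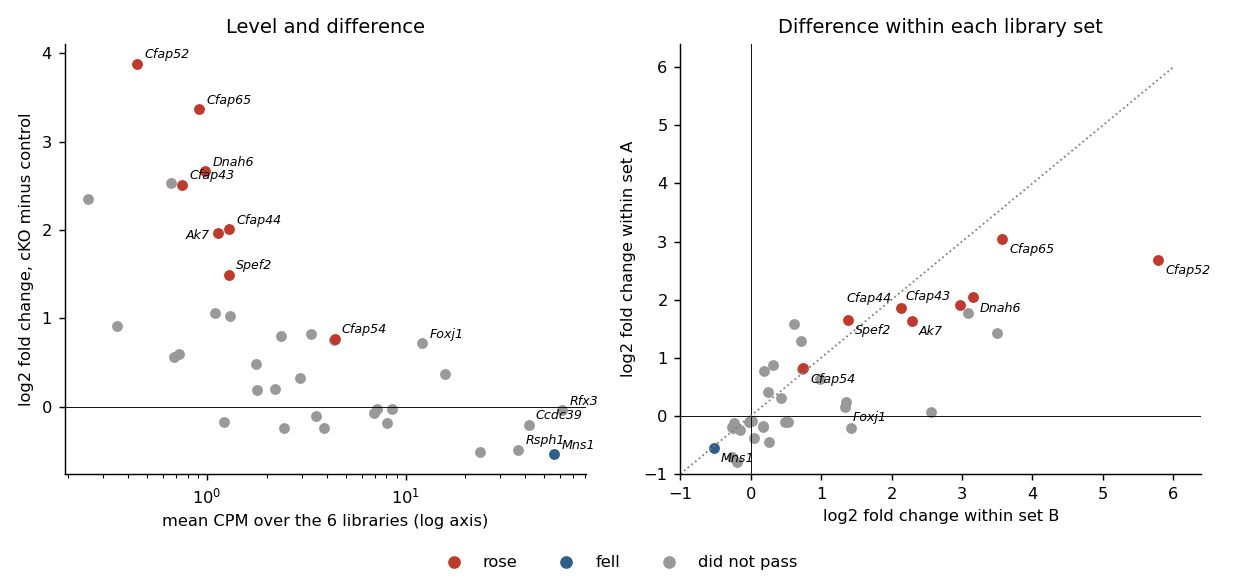
Left, log2 fold change (cKO minus control) of the 37 members tested against their mean CPM over the 6 libraries (log axis). Right, the log2 fold change within set A against that within set B, with the dotted line marking equality; 7 of the members that rose have mean levels under 2 CPM, and Cfap52 reaches 5.79 within set B and 2.69 within set A.

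These calls rest on the library set term and on cKO 3. With genotype alone in the model 0 members rose and 0 fell in edgeR, while 8 were higher and 0 lower at an unadjusted p under 0.05. The log2 fold changes were then 3.93 for Cfap52, 3.07 for Cfap65, 2.43 for Dnah6, 2.26 for Cfap43, 1.87 for Ak7, 1.65 for Cfap44, 1.01 for Spef2, 0.50 for Cfap54 and -1.21 for Mns1. In that model 0.216% of all genes tested rose and 0.0% fell. Without cKO 3, which leaves the comparison within set A, 0 members passed in edgeR, with 11 higher and 3 lower at an unadjusted p under 0.05; the log2 fold changes of the 8 were then between 0.84 and 3.07 and that of Mns1 at -0.53. With set A fitted alone Cfap65 passed, although control 2 is then the only control and is assumed to vary like the cKO libraries. Without control 2, which leaves set B, Spef2 (1.38), Cfap54 (0.74), Cfap44 (2.13), Ak7 (2.29) and Mns1 (-0.52) lost the call while Foxj1 (1.34) and Spag16 (1.35) gained it, and Cfap54 also lost it without control 3 (0.71) or cKO 2 (0.75). With sex as a further term 5 members rose, Dnah6 (3.70), Cfap65 (4.46), Cfap44 (3.15), Ak7 (3.47) and Rsph4a (9.48), and 0 fell. Cfap52 (8.41), Cfap43 (3.07), Spef2 (1.28), Cfap54 (0.94) and Mns1 (-0.60) lost the call there. All cKO libraries are female, so the genotype difference in that model leans on control 3, the only female control. Rsph4a and Cfap52 had 0 reads in control 3, so their fold changes there are not reliable sizes. With no filter on low counts 17 members rose and 3 fell, where 5.79% of all genes rose and 6.27% fell, adding among others Foxj1, Dnai1 and Rsph4a to the rises and Rfx2 and Rsph1 to the falls. Their fold changes hardly moved: Foxj1 was at 0.70 there and 0.72 in the main fit, Rsph4a at 2.49 and 2.54. The same reads gave a smaller adjusted p, so these added calls are not further evidence of a difference. Why the p fell was not tested.

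Of 40 tested among 49 other axoneme genes, 5 rose and 1 fell, with a median log2 fold change of 0.29, where 6.36% of all genes tested rose and 5.63% fell. For all 5 that rose, no control reached the filter's level, so they were tested through the cKO libraries and the count is not set against those shares. Pifo, which acts at the ciliary base, had 28, 22 and 10 reads in cKO 1, 2 and 3 and 0 reads in every control (adjusted p = 0.0124, edgeR). Its pooled ratio with 3 control reads was 15.04, which has the same gaps as that of Spag17. Log2 fold changes were 2.59 for Odf3b (SE 0.49, adjusted p = 0.0116, edgeR), 2.45 for Morn5 (SE 0.55), 2.94 for Cfap161 (SE 0.76) and 2.80 for Drc7 (SE 0.76), all with group means under 1 CPM, and -0.40 for the abundant Spef1, which fell (SE 0.09, adjusted p = 0.0250). Of 14 tested among 15 other axonemal dynein genes 0 passed in edgeR, with 0 higher and 1 lower at an unadjusted p under 0.05, and of 9 tested dynein assembly factors Dnaaf2 fell, with a log2 fold change of -0.49 and an adjusted p of 0.00881.

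Of 13 tested genes that start multiciliation 1 rose and 4 fell, where 6.36% of all genes tested rose and 5.63% fell. Deup1, which builds the deuterosome used to multiply centrioles, rose to 1.37 ± 0.523 CPM in cKO retinas, against 0.615 ± 0.038 CPM in control retinas (SD, n = 3; log2 fold change 1.26, SE 0.32, adjusted p = 0.0353, edgeR). Myb, Plk4, Cep152 and Foxn4 fell, by 0.57, 0.64, 0.52 and 0.67 on the log2 scale. Plk4 and Cep152 also serve centriole duplication in any dividing cell, and Foxn4 is a factor of retinal progenitors. Gmnc, which acts above Mcidas, had 27 reads over the cKO libraries and 0 over the controls, under the filter. Its pooled ratio with 3 control reads was 6.77, again with cKO reads taken as exact and no spread between animals. Among 6 other genes of the RFX family and its partners, Rfx4, a factor of the developing brain, rose to 2.34, 1.82 and 5.89 CPM in cKO 1, 2 and 3, against 0.087, 0 and 0.133 CPM in controls 2, 3 and 4 (log2 fold change 5.68, SE 0.58, adjusted p = 0.00089, edgeR). For Rfx4 no control reached the filter's level.

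Genes of the primary cilium showed no rises. Of 25 intraflagellar transport genes, which carry cargo along every kind of cilium, 4 fell (Ift80 by 0.56, Ift27 by 0.37, Traf3ip1 by 0.33 and Ift74 by 0.33 on the log2 scale) and 0 rose, with a median of -0.09. Of 28 genes of the primary cilium and its transition zone 0 rose and 0 fell, with a median of -0.06, and of 10 photoreceptor cilium genes 0 rose and 0 fell, with a median of 0.13. At an unadjusted p under 0.05 in edgeR, 1 transport gene, 1 primary cilium gene and 1 photoreceptor cilium gene were higher, and 8, 2 and 0 were lower. Over all genes tested 6.36% rose and 5.63% fell, and whether these lists differ from the motile cilia genes was not tested. With genotype alone 0 genes of all these cilia lists passed, and without cKO 3 only Rfx4 rose and Foxn4 fell. With sex as a further term 1 gene of these lists passed, a rise in the list of the RFX family.

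Markers of other tissues moved alongside these rises. Foxj1, Tmem212 and Ccdc153 stand both among the members and in the ependyma list below, and the retina also expresses Six3 of the forebrain list and Otx2 of the choroid plexus list. Of 22 tested among 25 lens markers 21 rose, where 6.36% of all genes tested rose and 5.63% fell. For 11 of the 21 no control reached the filter's level. They were tested through the cKO libraries, so the count is not set against those shares. The summed level of the lens list was 1274 to 2777 CPM in cKO retinas, against 122 to 234 CPM in control retinas. Of the cKO libraries cKO 3 had the lowest lens sum, with 2633, 2777 and 1274 CPM in cKO 1, 2 and 3. Of 8 tested among 14 forebrain and hypothalamus markers Otp, Sim1 and Tbr1 rose and Foxd1 fell. For Otp and Sim1 no control reached the filter's level. Otp, a hypothalamic factor, had 6.78, 4.31 and 15.4 CPM in cKO 1, 2 and 3, against 0.066, 0.030 and 0.133 CPM in controls 2, 3 and 4, and like Rfx4 and the members that rose it was highest in cKO 3. The summed level of that list was 310 to 930 CPM in cKO retinas and 327 to 973 CPM in control retinas, nearly all from Six3, and Nkx2-1, Lhx8 and Hcrt were at or near 0 in every library. Of 10 tested among 13 choroid plexus markers Folr1, Aqp1 and Enpp2 rose and Otx2 fell. Their sum was 333 to 354 CPM in cKO retinas and 380 to 505 CPM in control retinas. Otx2 made up most of it, with 273 to 293 CPM in cKO retinas and 339 to 473 CPM in control retinas. The sum therefore does not give the direction of the other markers. The defining marker Ttr had 1.67 to 2.55 CPM in cKO retinas and 0.120 to 1.64 CPM in control retinas and did not pass. Kl, Kcnj13 and Cldn2 were under the filter.

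In edgeR 0 of the 6 tested among 9 ependyma markers rose or fell (2 were higher at an unadjusted p under 0.05), with sums of 53.7 to 81.8 CPM in cKO retinas and 35.1 to 61.8 CPM in control retinas, of which Tppp3 made up most. The ependyma sum was 81.8, 70.9 and 53.7 CPM in cKO 1, 2 and 3, against 61.8, 35.1 and 39.0 CPM in controls 2, 3 and 4. The pigment epithelium sum was 218, 237 and 135 CPM, against 146, 114 and 114 CPM in the same order. Rlbp1 made up most of it, with 191, 188 and 93.9 CPM in cKO 1, 2 and 3. Both sums were lowest in cKO 3 among the cKO libraries. Among the controls both were likewise higher in control 2, of set A, and cKO 3 lay above controls 3 and 4 of its own set. Tmem212 and Mia were near 0. Of 12 tested among 15 pigment epithelium markers Trpm1, Oca2 and Gpnmb rose, with Rpe65 near 0 throughout. The sums were 135 to 237 CPM in cKO retinas and 114 to 146 CPM in control retinas. Oca2 and Gpnmb each had 1 control at the filter's level. Of 14 tested among 15 ciliary margin markers Wls, Ccnd2, Zic1 and Zic2 rose and Gas1 fell. The sums were 492 to 620 CPM in cKO retinas and 439 to 531 CPM in control retinas. Of all genes tested 6.36% rose and 5.63% fell. The part of any of these tissues in the rise of the motile cilia genes was not tested. In bulk RNA, more cells that express a gene and more of its RNA per cell cannot be told apart.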

How the data were processed

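The data are RNA-seq of 6 retinas, 3 per group. The authors deposited raw counts, whole numbers for each Ensembl gene. The submitters' processing notes name STAR, HTSeq and edgeR, and GRCm38 as build; the TruSeq RNA kit is named per the labels' protocols. Reads in the 5 rows that name no gene (26.4 to 28.8% of counts) stayed out of library sizes and tests. With 31483170 to 66947478 gene counts per library, counting error is large only for the thinly counted members. Groups came from the sample titles; libraries were treated as separate animals, as the series text gives 3 mice per group. Between libraries of a group the chi-square per degree of freedom was 24.8 to 574, so none was a repeat.

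Symbols, places and exon lengths came from GENCODE vM21 (GRCm38; 96.2% of identifiers matched). With edgeR 4.0.16 (R 4.3.3), genes were filtered by filterByExpr per group (10 reads at the median library size) and scaled by TMM, and glmQLFit and glmQLFTest compared cKO with control with library set (ambiguous reads over 2.9%) as a term. The members, the gene lists and this model were chosen with earlier results of these data known. P-values are 2-sided and Benjamini-Hochberg adjusted over all genes; SE comes from the fold change and F. The fit was tested on simulated data. Values are given for all regulators, members past the threshold and the 2 most abundant of each role group; of other lists, for up to 4 genes past the threshold with the smallest p; others were named with values in view. Alternatives tried were other terms, scalings and filters, DESeq2 1.42.0, limma-voom (limma 3.58.1), leaving out each library, and each set alone. 1 marker of the retina list is not reported here.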

Additional observations from a re-analysis of the deposited data

How the results depend on the processing

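Over all genes, 1062 rose and 939 fell; the counts were 36 and 0 with genotype alone, 173 and 63 with sex added, 253 and 123 within set A, 1471 and 1592 with no filter, and 1204 and 1672 in DESeq2. Leaving out 1 library at a time gave 176 to 1371 rises and 134 to 1336 falls. Against 8 rises and 1 fall among the members, there were 0 and 0 with genotype alone, 5 and 0 with sex, 1 and 0 within set A, 17 and 3 with no filter, 4 and 1 with a mean CPM of at least 1 (which removes 9 of the 37 members tested), 8 and 2 with RLE scaling, 8 and 2 in limma-voom, and 11 and 3 in DESeq2. Leaving out 1 library gave 0 to 9 member rises and 0 to 2 falls.

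No member past the threshold changed sign under any alternative run. Of the 28 tested members that did not pass, these changed sign: with genotype alone Ccno to 0.54, Dnah1 to 0.0554, Rsph9 to 0.45 and Tekt1 to 0.15; with sex Rfx3 to 0.15, Dnah1 to 0.0427, Rsph9 to 0.37, Cfap46 to 0.37, Tekt1 to 0.12 and Dnah5, 0.56 in the main model, to -0.20; with no scaling factors Rsph9 to 0.0178 and Tekt1 to 0.0161; within set A Hydin, 0.60 in the main model, to -0.21, Dnah7a to -0.10 and Tekt2 to -0.10; within set B Rfx3 to 0.0197, Dnah11 to 0.26, Dnah2 to 0.0434, Rsph9 to 0.18 and Tekt1 to 0.17. Leaving out 1 library gave -0.10 to 0.0217 for Rfx3, -0.43 to 0.26 for Dnah11, -0.37 to 0.0414 for Dnah2, -0.15 to 0.18 for Rsph9, -0.16 to 0.17 for Tekt1, -0.19 to 1.42 for Hydin, -0.0797 to 0.53 for Dnah7a and -0.0795 to 0.49 for Tekt2. Beyond the removal of genes by a filter or of libraries, the cause of these changes was not tested.

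Numbers 2 and 3 are shared by both groups, but nothing in the labels says that they pair animals. With the label number as a replicate block in place of library set, 9 members rose and 1 fell (1007 and 1033 over all genes), and Rfx3 stood at 0.0853, Rsph9 at 0.0208 and Cfap46 at 0.0121. Deviations from the group means correlated at 0.77 and 0.67 (across genes) for the libraries with the same number and at 0.67 and 0.71 for libraries of the same set with different numbers.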
